A study of Mus musculus with 20 samples.

Results

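Hearts of Wnt5a CKO mice were compared with hearts of control mice 4 weeks after TAC, transverse aortic constriction, an operation that narrows the aorta and loads the left ventricle with pressure. The comparison uses 4 of the 20 hearts of the series and the 12589 of 23284 genes whose mean over those 20 reached 0.5 FPKM. FPKM count sequenced fragments relative to transcript length and library size. The CKO hearts are those numbered 3 and 41 in the labels, from C57BL/6 mice with a Wnt5a floxed genotype and a Myh6-Cre/Esr 1 transgene. The control hearts are 1 and 2, from C57BL/6 mice with the Wnt5a floxed genotype and no Cre. Both genotypes were also sampled at the end of a tamoxifen treatment. The Myh6 promoter drives expression in cardiac muscle, so other cells of a CKO heart keep the allele. Controls carry no Cre, so effects of the transgene and of the loss of Wnt5a cannot be told apart. Sex, age and the floxed exon are not given in the labels. Set beside this comparison were CKO hearts 4 and 8 and control hearts 6 and 7, taken 4 weeks after a sham operation, and CKO hearts 13 and 31 and control hearts 11 and 32, taken 2 weeks after TAC. The labels name every library as a separate heart, and each group holds 2.

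Wnt5a is a secreted Wnt ligand that acts mostly without beta-catenin, through Frizzled and Ror receptors. The title of the series links it to YAP, the co-activator of TEAD transcription factors that the Hippo pathway restrains and that responds to mechanical force. Pressure overload of the ventricle is known for a foetal gene programme in muscle cells (natriuretic peptides, beta myosin heavy chain), for activated fibroblasts that lay down matrix, and for a decline of fatty acid oxidation genes.

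At 4 weeks after TAC, CKO hearts had less messenger RNA than control hearts for a set of matrix genes: cartilage oligomeric matrix protein (Comp), fibromodulin (Fmod), thrombospondin 4 (Thbs4), periostin (Postn), matrix Gla protein (Mgp) and elastin (Eln). They had more for the lipid hydrolase gene Ces1d, the fibulin gene Efemp1 and the glycolytic regulator Pfkfb1. By limma with Benjamini-Hochberg adjustment, 105 of 12589 genes passed an adjusted p of 0.05, which is 0.834% of the genes tested. Of these, 29 were higher in CKO hearts (0.23%) and 76 were lower (0.604%); 3 of the 105 are clone-named or predicted genes. In all 105 the 2 CKO hearts lay on one side of the 2 control hearts, a pattern that 21.5% of all genes showed upward and 20.8% downward. At an unadjusted p under 0.05, 1456 genes passed. The median log2 difference of all genes tested was 0.004.

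The 105 calls depend on single hearts and on a spread taken from all 10 groups. Leaving out heart 3 left 176 genes called, leaving out heart 41 left 33, leaving out heart 1 left 19 and leaving out heart 2 left 46. Of the 105 genes, 73 were still called without heart 3, 24 without heart 41, 16 without heart 1 and 34 without heart 2. All 105 kept their direction in the 4 fits. The call held in all 4 fits for 14 genes, among them Comp, Fmod, Thbs4, Ltbp2, Dio2, Col8a2, Postn, Mgp, Eln and Tgfb3 among the lower ones, and Esr1, Ces1d and Efemp1 among the higher ones. A fit of the 4 hearts alone called 2 genes, of which 1 is among the 105.

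The genotype labels were checked first. Wnt5a (chromosome 14, 28504750 to 28527448, plus strand, mm10) stood at 1.57 and 0.853 FPKM in CKO hearts 3 and 41, against 2.06 and 1.68 FPKM in control hearts 1 and 2. The groups did not overlap, but the log2 difference of -0.49 ± 0.21 (SE) did not pass the test (limma adjusted p = 0.37). Esr1, whose sequence is joined to Cre in the transgene, stood at 529 and 752 FPKM in CKO hearts, against 0.266 and 0.262 FPKM in control hearts. It carries the largest log2 difference of the genes that passed, 9.69 ± 0.29 (limma adjusted p = 2.06e-10), and is left out of the counts of genes that follow for other hearts.

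Tissue and library quality were checked on markers. None of 10 cardiac muscle genes was called (median log2 difference 0.02), and their summed level was 95963.5 and 91770.4 FPKM in CKO hearts, against 82287 and 90016 FPKM in control hearts. The atrial light chain Myl7 was near 0 in the 4 hearts, with 1.16 and 0 FPKM in CKO hearts, against 0.359 and 0 FPKM in control hearts. Relative sequencing depth, read from the steps between low values, was 0.877 and 0.956 in CKO hearts 3 and 41, against 0.950 and 1.21 in control hearts 1 and 2. Absolute depth is not known, so no counting interval can be given.

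Heart 41 stood apart from the other 19 hearts. It was above all 19 in 32 of 37 interferon response genes and in 16 of 16 antigen presentation genes, and below all 19 in 3 of 3 red-cell genes; over all 12589 genes it was above all others in 431 and below in 360. Igtp, an interferon-induced GTPase, was 9.89 FPKM in CKO heart 3 and 623 FPKM in CKO heart 41, against 7.77 and 25.6 FPKM in control hearts 1 and 2. Haemoglobin alpha (Hba-a1, whose reads may be shared with its copy Hba-a2) was 934 and 90.6 FPKM in those CKO hearts, against 1687 and 588 FPKM in the control hearts. The log2 differences between the 2 hearts of a group had an SD of 0.580 in CKO TAC hearts at 4 weeks, the highest of the 10 groups, the others lying between 0.439 and 0.526.

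**Figure D1:**
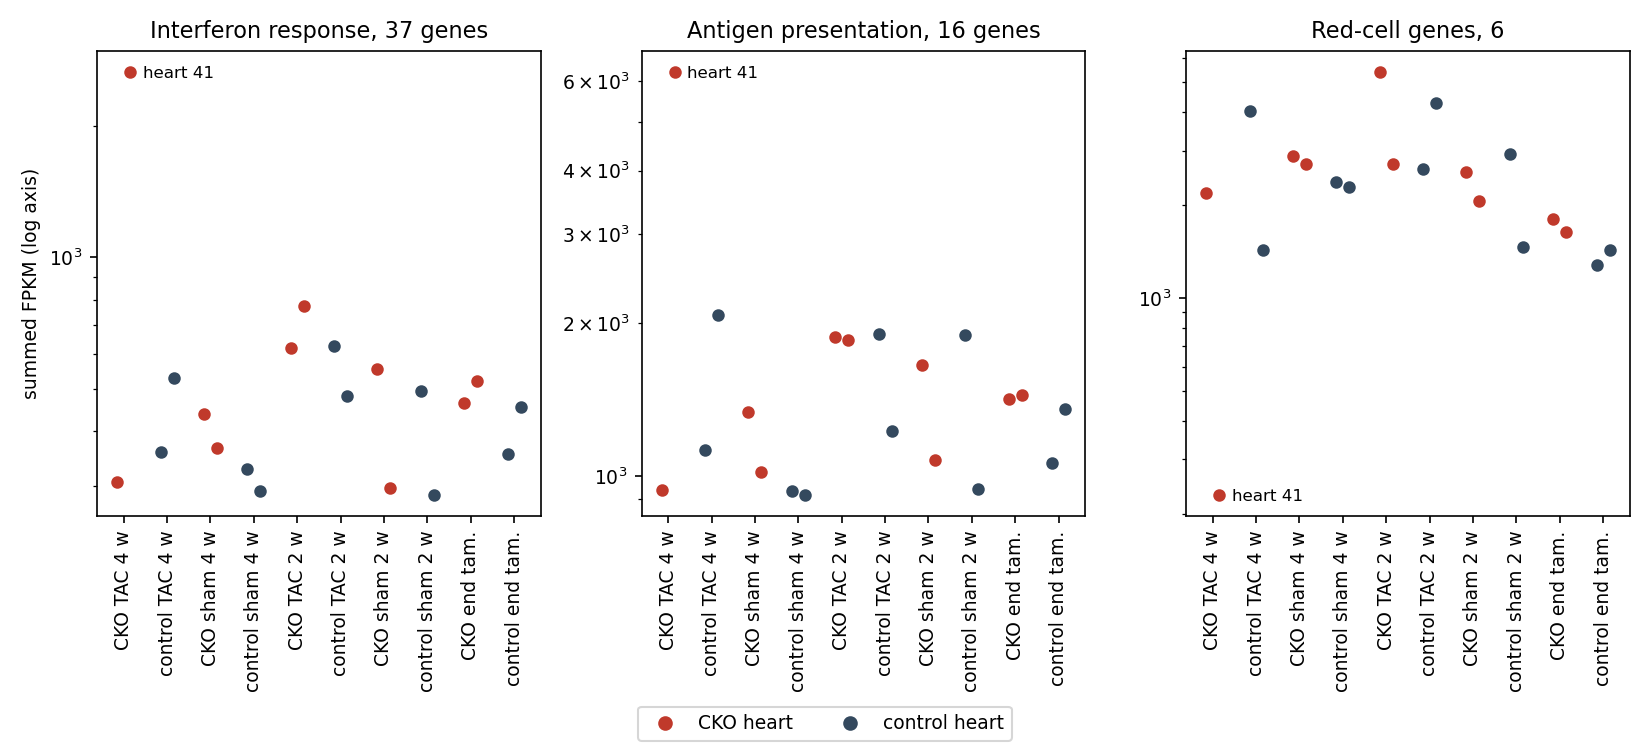
Summed FPKM (log axis) of 37 interferon response genes, 16 antigen presentation genes and 6 red-cell genes in each of the 20 hearts, by group, CKO hearts in red and control hearts in dark grey. Heart 41 lies above all other hearts in both left panels, at 2658 and 6265 FPKM, and below all others in the right panel, at 231 FPKM.

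Of the 76 genes that fell, 18 were on the list of extracellular matrix genes. Of 65 matrix genes tested, 18 fell in CKO hearts, 1 rose and 46 did not pass, while 0.604% of all genes fell and 0.23% rose. The groups were apart downward in 44 and upward in 1, beside 20.8% and 21.5% of all genes. The median log2 difference of the 65 was -0.52. That median was -0.48 without heart 3, -0.51 without heart 41, -0.62 without heart 1 and -0.49 without heart 2. In bulk tissue, fewer cells of a type and less RNA per cell cannot be told apart. No cardiac fibroblast marker outside the matrix list fell except Serpinf1, as described further on.

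Comp (chromosome 8, 70373558 to 70382066, plus strand), a pentameric glycoprotein that binds collagen, had 0.334 and 0.184 FPKM in CKO hearts 3 and 41, against 16.0 and 11.6 FPKM in control hearts 1 and 2. Both CKO hearts were near 0 and both control hearts far above them; the log2 difference was -4.23 ± 0.46 (SE, limma adjusted p = 0.0011). Fmod (chromosome 1, 134037254 to 134048277, plus strand), a small proteoglycan that organises collagen fibrils, had 0.168 and 0.103 FPKM in CKO hearts, against 5.27 and 9.89 FPKM in control hearts. It fell by 3.61 ± 0.48 on the log2 scale (limma adjusted p = 0.0027). Thbs4, a matricellular protein of stressed heart muscle, had 4.61 and 2.00 FPKM in CKO hearts, against 21.7 and 31.7 FPKM in control hearts, a difference of -2.90 ± 0.37 (limma adjusted p = 0.0024). In each of these 3 genes no CKO heart came near either control heart, and each call held in all 4 fits that left out a heart.

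Postn, Mgp and Eln, expressed at a higher level, fell as well. Postn, a product of activated fibroblasts, had 44.6 and 23.5 FPKM in CKO hearts, against 128 and 119 FPKM in control hearts (-1.91 ± 0.23, limma adjusted p = 0.0014). Mgp, a vitamin K dependent inhibitor of calcification that is not on the list, had 525 and 352 FPKM in CKO hearts, against 1462 and 1580.3 FPKM in control hearts (-1.82 ± 0.21, limma adjusted p = 0.0013). Eln, the core protein of elastic fibres, had 10.6 and 13.5 FPKM in CKO hearts, against 25.2 and 27.2 FPKM in control hearts (-1.09 ± 0.13, limma adjusted p = 0.0013). These 3 calls also held in all 4 fits. For Postn and Mgp the lower CKO heart was heart 41, and for Eln it was heart 3.

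Mfap5, Mfap4 and Ltbp2 were called among the genes of microfibrils and latent TGF-beta binding proteins, while Fbn1 (-0.22), Mfap2 (-0.77), Ltbp1 (-0.02) and Ltbp3 (-0.48) did not pass. Mfap5, a microfibril glycoprotein, had 33.6 and 22.3 FPKM in CKO hearts, against 99.6 and 79.1 FPKM in control hearts (-1.68). Mfap4, which binds elastin and tropoelastin, had 19.5 and 12.5 FPKM in CKO hearts, against 70.3 and 58.0 FPKM in control hearts (-2.00), and Ltbp2, a microfibril-bound relative of the latent TGF-beta binding proteins, had 1.55 and 0.489 FPKM in CKO hearts, against 6.55 and 7.10 FPKM in control hearts (-2.36). The Mfap5 call was lost without heart 1 and the Mfap4 call without heart 41 or heart 1. Cilp, a cartilage intermediate layer protein that fibroblasts of the loaded heart make, had 8.23 and 5.48 FPKM in CKO hearts, against 32.4 and 57.9 FPKM in control hearts (-2.60, limma adjusted p = 0.0058), a call lost without heart 41 or heart 2. Col8a2, a short-chain collagen, had 0.252 and 0.0989 FPKM in CKO hearts, against 2.03 and 2.72 FPKM in control hearts (-2.09).

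The other matrix genes that passed fell by 0.67 to 1.31 on the log2 scale, and the fibrillar collagens Col1a1 and Col3a1 did not pass. Biglycan (Bgn) had 151 and 146 FPKM in CKO hearts, against 257 and 258 FPKM in control hearts (-0.79), and Sparc, a collagen-binding glycoprotein, had 254 and 266 FPKM in CKO hearts, against 389.8 and 442 FPKM in control hearts (-0.67). The remaining falls were Aspn (-1.01), Lum (-0.74), Col5a2 (-0.74), Col14a1 (-1.02), Fn1 (-0.82) and Loxl3 (-1.31). These 8 calls were lost without heart 41, heart 1 or heart 2, and for Sparc, Col14a1, Fn1 and Loxl3 also without heart 3; without heart 41 the difference of Lum was -0.46. The major collagen gene Col1a1 stood at 17.7 and 26.4 FPKM in CKO hearts, against 23.4 and 36.1 FPKM in control hearts, and the groups overlapped (limma adjusted p = 0.65). Col3a1 stood at 53.4 and 75.7 FPKM in CKO hearts, against 80.5 and 107 FPKM in control hearts (-0.54 ± 0.22, limma adjusted p = 0.34). The collagen chaperone Serpinh1 was at 199.8 and 215 FPKM in CKO hearts and 194 and 213 FPKM in control hearts.

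Efemp1 was the matrix gene that went the other way. Efemp1 (chromosome 11, 28853204 to 28926743, plus strand), which encodes fibulin 3, had 2.92 and 4.24 FPKM in CKO hearts, against 0.599 and 0.590 FPKM in control hearts. Both CKO hearts exceeded both controls, and the log2 difference of 1.88 ± 0.22 (limma adjusted p = 0.0013) held in all 4 fits.

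**Figure D2:**
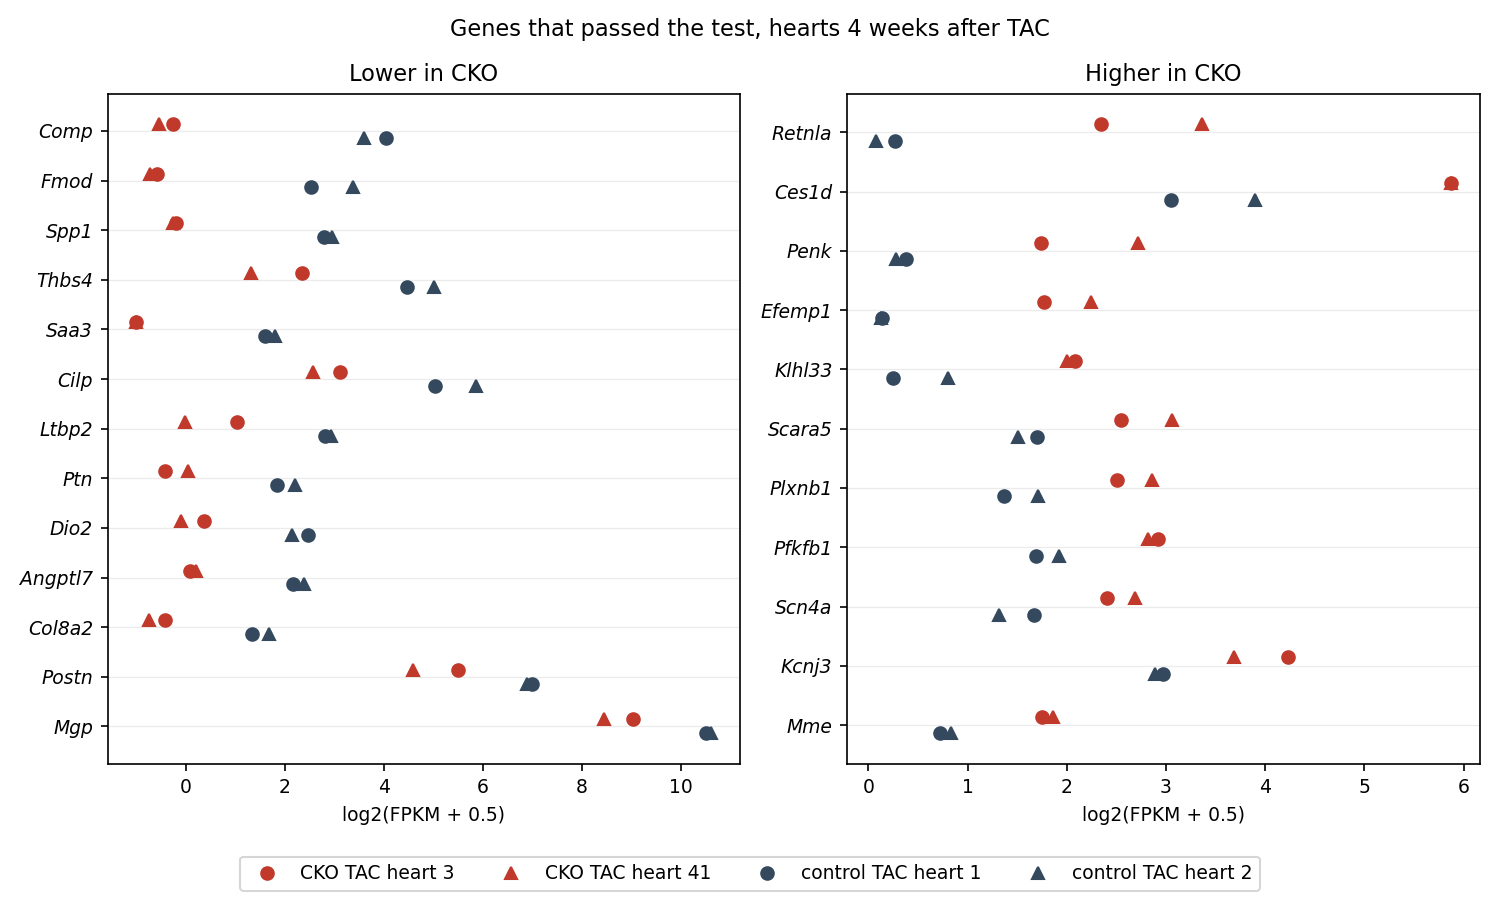
Values of single hearts 4 weeks after TAC as log2(FPKM + 0.5), for 13 genes lower and 11 genes higher in CKO hearts; circles and triangles mark the 2 hearts of a group, CKO in red above control in dark grey. In each gene shown the CKO hearts lie wholly to one side of the control hearts, and Saa3 is listed at 0 in both CKO hearts.

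Tgfb3, a TGF-beta ligand, had 6.07 and 6.46 FPKM in CKO hearts, against 13.5 and 13.2 FPKM in control hearts (-1.03 ± 0.12, limma adjusted p = 0.0013). The hearts of each group were within 1 FPKM of each other, and the call held in all 4 fits. It was the only one of 18 TGF-beta ligands, receptors and targets called, while 0.834% of all genes were. Of the 18, 12 were apart downward and 1 upward, beside 20.8% and 21.5% of all genes, and their median was -0.33. Without heart 3 the list had 3 calls. Tgfb2 (4.86 and 2.32 FPKM in CKO hearts, against 7.12 and 6.97 FPKM in control hearts; limma adjusted p = 0.10) and the decoy receptor Bambi (7.70 and 5.23 FPKM in CKO hearts, against 15.4 and 9.60 FPKM in control hearts; 0.095) did not pass.

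Dio2, the deiodinase that makes active thyroid hormone inside cells, had 0.793 and 0.436 FPKM in CKO hearts, against 5.03 and 3.94 FPKM in control hearts (-2.17 ± 0.23, limma adjusted p = 0.0011). It was several times lower in each CKO heart than in each control heart, and the call held in all 4 fits. The growth factor pleiotrophin (Ptn, -2.22), the angiopoietin-like factor Angptl7 (-2.13) and the NADPH oxidase Nox4 (-1.58) fell too, but each lost its call without heart 1 and without heart 2, and Angptl7 and Nox4 also without heart 41.

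Among 19 acute-phase and cytokine genes, 2 fell and none rose, while 0.604% of all genes fell and 0.23% rose. Their median was -0.04. Osteopontin (Spp1), a secreted phosphoprotein of macrophages and stressed muscle, had 0.367 and 0.336 FPKM in CKO hearts, against 6.44 and 7.21 FPKM in control hearts (-3.10 ± 0.49, limma adjusted p = 0.0077). The acute-phase gene Saa3 was listed at 0 in both CKO hearts and at 2.54 and 3.01 FPKM in control hearts. Both calls were lost without heart 41, heart 1 or heart 2. The chemokine genes Ccl7 and Ccl2 were apart upward without passing: Ccl7 had 10.5 and 27.6 FPKM in CKO hearts, against 3.24 and 4.38 FPKM in control hearts (limma adjusted p = 0.34), and Ccl2 had 17.6 and 21.1 FPKM in CKO hearts, against 7.56 and 8.84 FPKM in control hearts (0.46).

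Of the Wnt ligands, receptors and antagonists, 1 of 27 tested was called, while 0.834% of all genes were. Frzb, a secreted Frizzled-related antagonist, had 2.62 and 2.51 FPKM in CKO hearts, against 6.31 and 7.16 FPKM in control hearts (-1.24 ± 0.23, limma adjusted p = 0.023), a call lost whichever of the 4 hearts was left out. Its relatives Sfrp2 (1.41 and 1.29 FPKM in CKO hearts, against 5.04 and 4.99 FPKM in control hearts; limma adjusted p = 0.060) and Sfrp1 (4.91 and 4.60 FPKM in CKO hearts, against 9.93 and 7.38 FPKM in control hearts; 0.12) were apart downward without passing, as was the Dishevelled binder Nkd2 (0.10). Over the 27 genes, 9 were apart downward and 4 upward, beside 20.8% and 21.5% of all genes, with a median of -0.10. The largest fall on this list, that of Dkk3 (-2.21), did not pass.

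Of 27 YAP and TEAD target genes tested, 1 fell, Tgfb3, and none rose, while 0.604% of all genes fell and 0.23% rose. Apart downward were 11 and upward 5, beside 20.8% and 21.5% of all genes, and the median was -0.11. Without heart 3 the list had 3 calls. Ctgf, a matricellular target, had 85.9 and 46.2 FPKM in CKO hearts, against 230.0 and 163 FPKM in control hearts (-1.61 ± 0.40, limma adjusted p = 0.094). Ankrd1, a titin-associated stress gene of muscle, had 2518 and 2228 FPKM in CKO hearts, against 5165 and 4699.8 FPKM in control hearts (-1.06 ± 0.27, limma adjusted p = 0.11). In both genes the 2 groups stood apart, while the third widely used target, Cyr61, overlapped at 73.9 and 85.5 FPKM in CKO hearts and 65.6 and 83.7 FPKM in control hearts. Amotl2, a target that feeds back on YAP, pointed upward with 19.0 and 19.9 FPKM in CKO hearts, against 14.8 and 11.4 FPKM in control hearts (limma adjusted p = 0.16).

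Promoter sequence was read where a RefSeq promoter was given, for 52 of the 76 genes that fell and 19 of the 29 that rose. The TEAD motif GGAATG, searched on both strands from 250 bases before to 50 bases after the start site, was found in 8 of 52 promoters of genes that fell (15.4%), 6 of 19 of genes that rose (31.6%) and 1451 of 9912 of all genes tested (14.6%). The AP-1 motif TGANTCA was found in 4 of the genes that fell (7.69%), 2 of those that rose (10.5%) and 6.22% of all. The SRF CArG box was found in 2 of the genes that fell (3.85%), in none that rose and in 1.64% of all. No share was tested, and those of the CArG box rest on 2 genes. Shown are the 250 bases before the start site, from RefSeq on GRCm38.p6, of the 2 genes with the motif among the 12 largest falls and of Ankrd1, a YAP target that did not pass; each is 5′ to 3′ on the gene's own minus strand, with GGAATG or its reverse complement CATTCC in capitals.
Thbs4 (chr13:92794819-92795068): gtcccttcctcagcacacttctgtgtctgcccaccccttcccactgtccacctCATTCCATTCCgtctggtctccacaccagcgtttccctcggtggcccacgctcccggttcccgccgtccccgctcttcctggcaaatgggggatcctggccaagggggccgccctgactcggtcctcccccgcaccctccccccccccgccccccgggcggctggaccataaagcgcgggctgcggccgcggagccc
Dio2 (chr12:90739039-90739288): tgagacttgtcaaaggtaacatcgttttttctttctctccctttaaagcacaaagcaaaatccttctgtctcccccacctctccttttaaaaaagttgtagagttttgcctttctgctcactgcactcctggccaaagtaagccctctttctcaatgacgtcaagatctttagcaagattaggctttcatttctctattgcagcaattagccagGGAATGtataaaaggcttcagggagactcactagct
Ankrd1 (chr19:36119845-36120094): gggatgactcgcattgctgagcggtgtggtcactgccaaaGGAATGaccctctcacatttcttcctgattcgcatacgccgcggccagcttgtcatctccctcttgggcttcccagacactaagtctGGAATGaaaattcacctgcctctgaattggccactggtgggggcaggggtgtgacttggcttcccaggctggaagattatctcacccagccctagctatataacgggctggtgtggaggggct
Thbs4 holds 2 overlapping copies on the opposite strand, which begin 197 and 192 bases before the start site. Dio2 holds 1 copy that begins 36 bases before it, and Ankrd1 holds 2, at 210 and 123 bases before it. A match describes letters in the window only.

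Most foetal and overload genes were apart downward in CKO hearts, and 2 passed. Of 19 tested, 2 fell, none rose and 17 did not pass, while 0.604% of all genes fell. Apart downward were 15 and upward 3, beside 20.8% and 21.5% of all genes, and the median log2 difference was -0.56. The called genes were the deubiquitinase Uchl1 (9.95 and 4.34 FPKM in CKO hearts, against 33.1 and 24.4 FPKM in control hearts; -2.02 ± 0.31, limma adjusted p = 0.0076) and the intermediate filament desmin (Des, 1370.3 and 1289.6 FPKM in CKO hearts, against 1806 and 1832 FPKM in control hearts; -0.45 ± 0.08, limma adjusted p = 0.021). The Uchl1 call was lost without heart 41 or heart 1, and that of Des also without heart 2; the list had 4 calls without heart 3, none without heart 41 or heart 1 and 1 without heart 2.

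The natriuretic peptides stood apart between the genotypes without passing. Nppa had 1041 and 454 FPKM in CKO hearts, against 3547 and 2761 FPKM in control hearts (-2.19 ± 0.55, limma adjusted p = 0.096). Nppb had 1462 and 1247 FPKM in CKO hearts, against 3380.3 and 2655 FPKM in control hearts (-1.15 ± 0.39, limma adjusted p = 0.24). Heart 41 was the lowest of the 4 in both. Beta myosin heavy chain, Myh7, had 52.7 and 36.4 FPKM in CKO hearts, against 262 and 196 FPKM in control hearts; its SE of 1.23 around a difference of -2.35 comes from the spread of all 10 groups, and it did not pass (limma adjusted p = 0.49). The actin-binding repeat protein Xirp2 came nearest to the threshold, with 136 and 90.2 FPKM in CKO hearts, against 174 and 208 FPKM in control hearts (-0.78, limma adjusted p = 0.061).

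Most genes of energy metabolism were apart upward in CKO hearts, and none passed the test. Of 38 fatty acid oxidation genes 28 were apart upward and none downward (median 0.27), of 76 respiratory chain and ATP synthase genes 63 upward and none downward (median 0.18), and of 19 tricarboxylic acid cycle genes 14 upward and none downward (median 0.16); over all genes 21.5% were apart upward. The nearest to the threshold was the dienoyl-CoA isomerase Ech1, with 2089.6 and 2027 FPKM in CKO hearts, against 1432 and 1519 FPKM in control hearts (0.48 ± 0.11, limma adjusted p = 0.063). Hadhb, the beta subunit of the mitochondrial trifunctional protein, had 198 and 186 FPKM in CKO hearts, against 144 and 155 FPKM in control hearts (0.36 ± 0.12, limma adjusted p = 0.21). With 1 heart left out the medians lay at 0.20 to 0.30 for fatty acid oxidation, 0.14 to 0.21 for the respiratory chain and 0.09 to 0.21 for the tricarboxylic acid cycle, each lowest without heart 3.

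Ces1d and Pfkfb1, metabolic genes outside those 3 lists, rose. Ces1d (chromosome 8, 93166068 to 93197838, minus strand), a triglyceride hydrolase, had 58.1 and 57.9 FPKM in CKO hearts, against 7.79 and 14.4 FPKM in control hearts. The CKO hearts were almost alike and well above both controls, with a difference of 2.40 ± 0.28 (limma adjusted p = 0.0013) that held in all 4 fits; carboxylesterase genes are close copies, so reads may be shared. Pfkfb1, which sets the level of the glycolytic activator fructose 2,6-bisphosphate, had 7.06 and 6.56 FPKM in CKO hearts, against 2.71 and 3.28 FPKM in control hearts (1.07 ± 0.16, limma adjusted p = 0.0052), a call lost without heart 1. It was the only one of 20 glycolysis and glucose use genes called (median -0.03), while 0.834% of all genes were.

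The sodium channel Scn4a had 4.80 and 5.96 FPKM in CKO hearts, against 2.68 and 1.99 FPKM in control hearts (1.06), and the potassium channel Kcnj3 had 18.2 and 12.4 FPKM in CKO hearts, against 7.35 and 6.89 FPKM in control hearts (1.03). Kcnj3 is also an atrial marker, and 1 of 9 atrial markers tested was called, beside 0.834% of all genes. Another atrial marker, Dkk3, had a difference of -2.21 and did not pass. Myl7 and Sln were at or near 0 in these hearts. The Kelch protein gene Klhl33 had 3.72 and 3.51 FPKM in CKO hearts, against 0.688 and 1.24 FPKM in control hearts (1.52), and the semaphorin receptor Plxnb1 had 5.19 and 6.75 FPKM in CKO hearts, against 2.09 and 2.78 FPKM in control hearts (1.14). The calls of Scn4a and Plxnb1 were lost without heart 41 or heart 1, that of Scn4a also without heart 2, and those of Kcnj3 and Klhl33 whichever of the 4 hearts was left out. Of 35 adult contraction and ion handling genes none was called (median 0.06), and of 16 atrophy ligase and Kelch genes Klhl33 alone was (median 0.07). Over all genes 0.834% were called.

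Retnla, Penk and Enpp2, which encode secreted proteins, also rose. Retnla, a secreted product of alternatively activated macrophages, had 4.56 and 9.76 FPKM in CKO hearts, against 0.702 and 0.553 FPKM in control hearts (2.68 ± 0.48, limma adjusted p = 0.020). Proenkephalin (Penk) had 2.83 and 6.10 FPKM in CKO hearts, against 0.796 and 0.717 FPKM in control hearts (1.90), and the autotaxin gene Enpp2 had 2.74 and 4.93 FPKM in CKO hearts, against 1.83 and 1.39 FPKM in control hearts (1.00). In these 3 genes heart 41 was the higher CKO heart, and all 3 calls were lost without it; without heart 41 the difference of Enpp2 was 0.63. They were lost without heart 1 or heart 2 as well.

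Of 15 fibroblast markers, 2 fell (Serpinf1, an anti-angiogenic serpin, and Lum), and 1 rose, the ferritin receptor Scara5. Over all genes, 0.604% fell and 0.23% rose. The groups were apart downward in 6 of the 15 and upward in 3, beside 20.8% and 21.5% of all genes. At 2 weeks after TAC, 10 were apart downward and none upward, beside 18.3% and 22.3% of all genes. Serpinf1 had 28.3 and 25.1 FPKM in CKO hearts, against 47.1 and 50.8 FPKM in control hearts (-0.87), and Scara5 had 5.33 and 7.85 FPKM in CKO hearts, against 2.75 and 2.35 FPKM in control hearts (1.20); both calls were lost without heart 41, heart 1 or heart 2. The list had 4 calls without heart 3, 1 without heart 41 and none without heart 1 or heart 2. The fibroblast receptor Pdgfra stood at 8.18 and 8.13 FPKM in CKO hearts and 8.50 and 8.55 FPKM in control hearts. The summed level of the fibroblast list was 1288 and 1242 FPKM in CKO hearts, against 1404 and 1240.1 FPKM in control hearts, none of its markers was at 0, and its part in the matrix result was not tested.

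No gene was called among 17 macrophage, 6 neutrophil, 13 endothelial and 11 smooth muscle and pericyte markers, with medians of 0.06, -0.64, -0.15 and -0.04. The summed macrophage level was 296 FPKM in CKO heart 3 and 529.6 FPKM in CKO heart 41, against 376 and 399 FPKM in control hearts 1 and 2. Of 6 lymphatic markers the chemokine Ccl21a fell, with 15.6 and 9.62 FPKM in CKO hearts, against 33.0 and 27.7 FPKM in control hearts (-1.27); its near-identical gene copies make this level uncertain, and the call was lost without heart 41, heart 1 or heart 2. Beside these counts, 0.604% of all genes fell and 0.23% rose. The lung list had no gene above the filter.

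Lists that rest on heart 41 had no gene called. The 37 interferon response genes had a median of 0.62 with all hearts, 1.92 without heart 3 and -0.46 without heart 41, and the 16 antigen presentation genes had 0.65, 2.00 and -0.66. The 3 red-cell genes tested had a median of -1.77 with all hearts, -3.41 without heart 3 and -0.16 without heart 41. Without heart 41 the medians of the interferon and antigen lists were thus below 0. Cell division (34 tested, median -0.12), endoplasmic reticulum stress (22, -0.03), cytosolic heat shock (17, 0.16), immediate early (23, 0.23) and circadian clock genes (18, 0.09) had no gene called either.

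**Figure D3:**
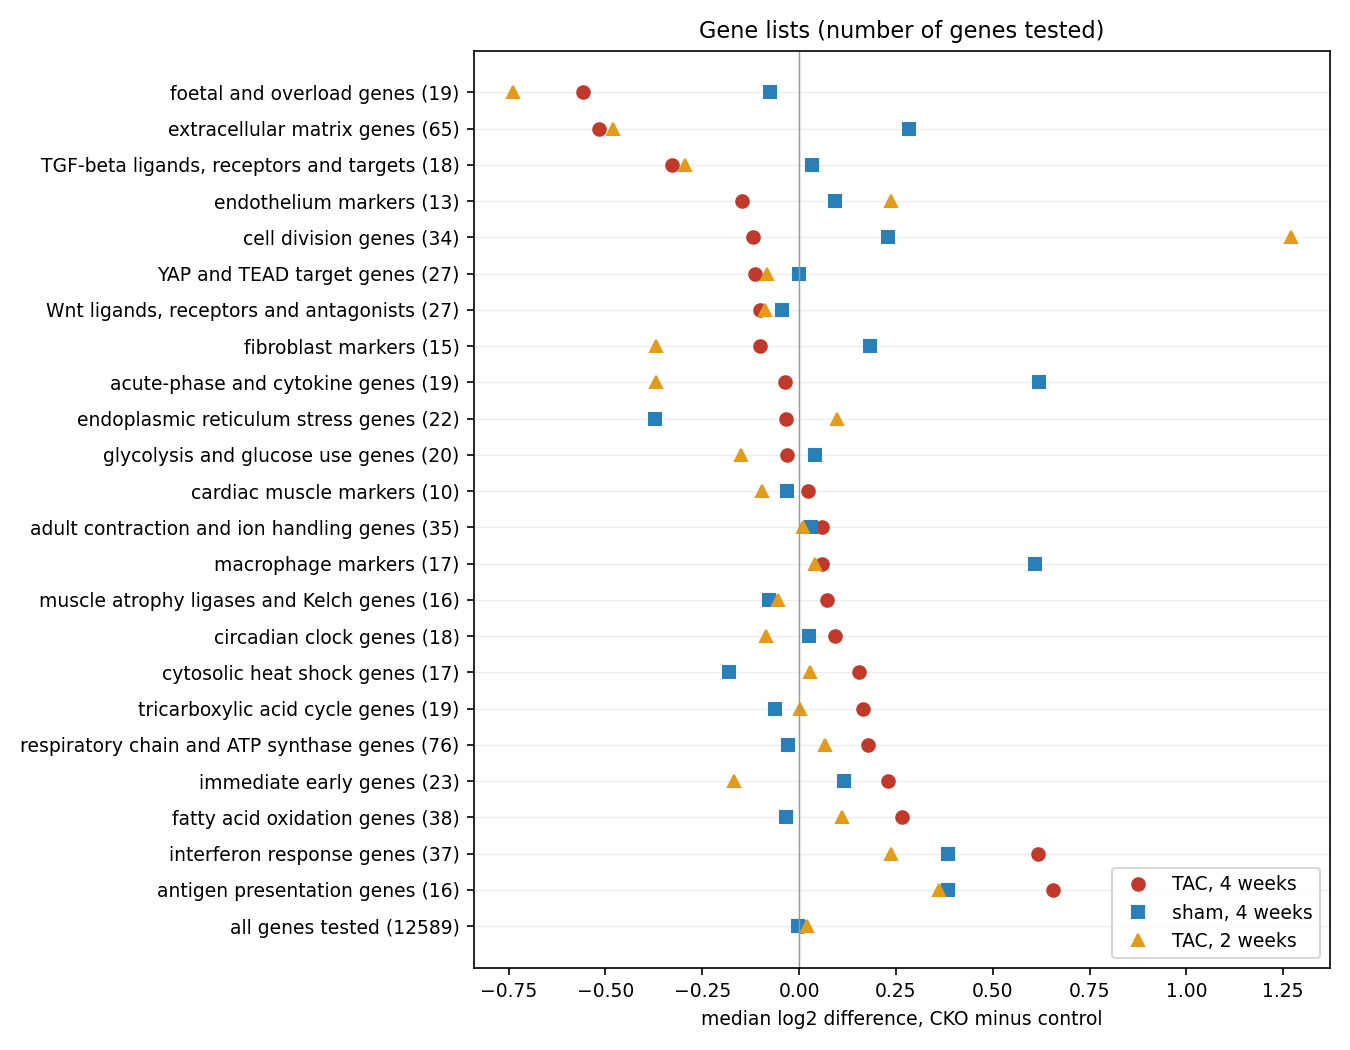
Median log2 difference, CKO minus control, of 23 gene lists and of all genes tested, with the number of genes tested in brackets; red circles are TAC hearts at 4 weeks, blue squares sham hearts at 4 weeks and yellow triangles TAC hearts at 2 weeks. At 4 weeks after TAC the foetal and matrix lists lie lowest, at -0.56 and -0.52, and the antigen presentation and interferon lists highest, at 0.65 and 0.62.

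The difference between genotypes after TAC was set against that in the sham hearts of the same time, which share no heart with the TAC groups. This test uses the TAC hearts of the main comparison again. Genes called there are therefore favoured, and a call here is not separate support for them. By limma, 94 of 12589 genes (0.747%) differed between TAC and sham hearts in the CKO minus control difference at an adjusted p of 0.05, 26 upward (0.207%) and 68 downward (0.54%). Of the 65 matrix genes 17 were called downward and 1 upward. Their median CKO minus control difference was -0.52 after TAC and 0.28 after sham, where 31 were apart upward and 3 downward (17.1% and 16.9% of all genes were). Their median TAC minus sham difference was -0.01 in CKO hearts and 0.89 in control hearts.

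Postn shows the pattern heart by heart. After TAC it had 44.6 and 23.5 FPKM in CKO hearts, against 128 and 119 FPKM in control hearts, and after sham 21.5 and 22.3 FPKM in CKO hearts, against 15.2 and 10.9 FPKM in control hearts. The CKO hearts were thus the lower ones after TAC and the higher ones after sham. The sham difference of 0.74 did not pass (limma adjusted p = 0.52). The difference between the 2 settings, which includes the sham difference, was -2.65 ± 0.33 (limma adjusted p = 0.0070). Mgp had 493 and 499.9 FPKM in sham CKO hearts, against 408 and 395 FPKM in sham control hearts. Its sham difference of 0.31 did not pass either (limma adjusted p = 0.82), and its difference between settings was -2.13 ± 0.30 (limma adjusted p = 0.0079). For Comp, sham hearts of both genotypes were low, 0.630 and 0.416 FPKM in CKO and 0.761 and 0.933 FPKM in control hearts, and the difference between settings was -3.82 ± 0.65 (limma adjusted p = 0.018).

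Ces1d and Efemp1 were the reverse: higher in CKO hearts after TAC and not after sham. Ces1d had 75.1 and 102 FPKM in sham CKO hearts, against 79.0 and 138 FPKM in sham control hearts, and the groups overlapped. Set beside the 58.1 and 57.9 FPKM in CKO and the 7.79 and 14.4 FPKM in control hearts after TAC, the difference between settings was 2.65 ± 0.40 (limma adjusted p = 0.0092). Efemp1 had 5.66 and 4.33 FPKM in sham CKO hearts, against 5.60 and 6.72 FPKM in sham control hearts, and its difference between settings was 2.16 ± 0.31 (limma adjusted p = 0.0080). Thbs4, the thrombospondin, did not pass this test (-2.29 ± 0.53, limma adjusted p = 0.073), nor did Nppa (-2.01 ± 0.77, 0.30). Leaving out 1 of the 8 hearts gave 20 to 121 genes called, the fewest without sham CKO heart 8 (20) and sham control heart 7 (24), and a fit of the 4 groups alone called none.

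**Figure D4:**
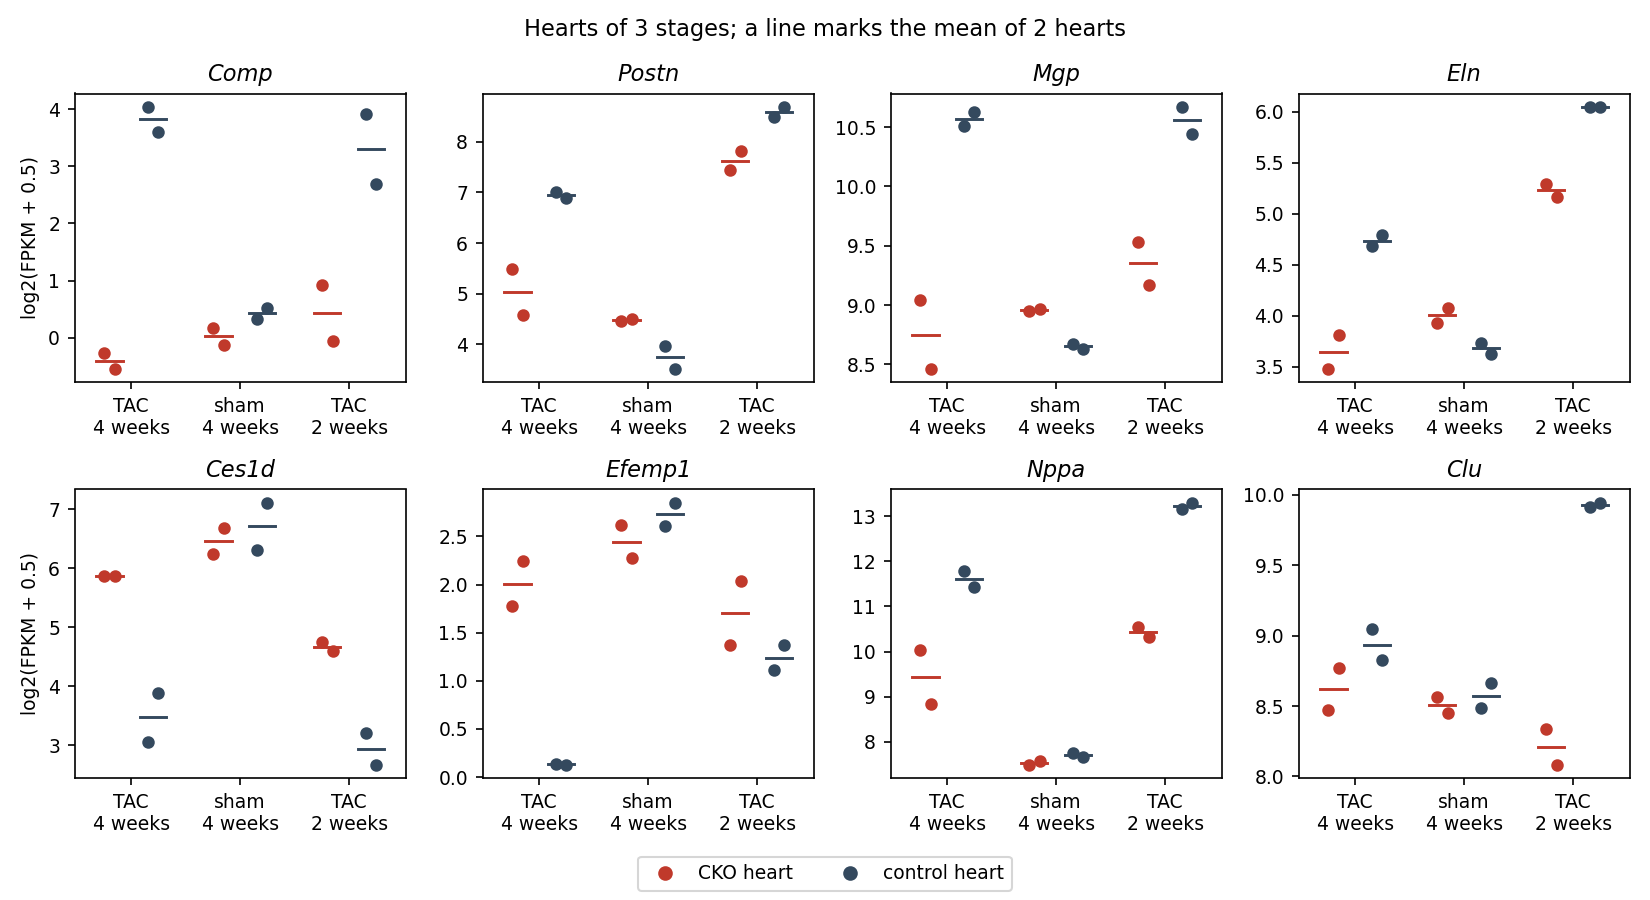
Level of 8 genes, as log2(FPKM + 0.5), in TAC hearts at 4 weeks, sham hearts at 4 weeks and TAC hearts at 2 weeks; each dot is a heart, each line the mean of 2 hearts, CKO in red left of control in dark grey. Control TAC hearts stand apart from CKO TAC hearts at 4 weeks in each of the 8 genes, while in sham hearts each difference is smaller.

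The 4 TAC hearts taken at 2 weeks offer other hearts after the same operation. The labels give no measure of load for any heart. The spread used for the calls came from all 10 groups, so these hearts and the sham hearts entered it. A gene whose hearts lie close together within groups is called more readily. Such a gene is also more readily apart, in either direction. The shares of all genes given below are therefore not an even baseline for the counts apart. Of the 76 genes lower in CKO hearts at 4 weeks, 70 were lower at 2 weeks too and 66 were apart downward (18.3% of all genes were), with a median of -0.69, against -1.10 at 4 weeks. Of the 28 higher genes without Esr1, all 28 were higher at 2 weeks and 25 were apart upward (22.3% of all genes were), with a median of 0.41, against 0.92 at 4 weeks. In the sham hearts at 4 weeks, 5 of the 76 were apart downward (16.9% of all genes) and 43 upward (17.1%), with a median of 0.26; of the 28, 3 were apart upward and 13 downward, with a median of -0.17. Among the exceptions at 2 weeks was Saa3, at 1.11 and 1.06 FPKM in CKO hearts and 0 and 0.393 FPKM in control hearts.

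**Figure D5:**
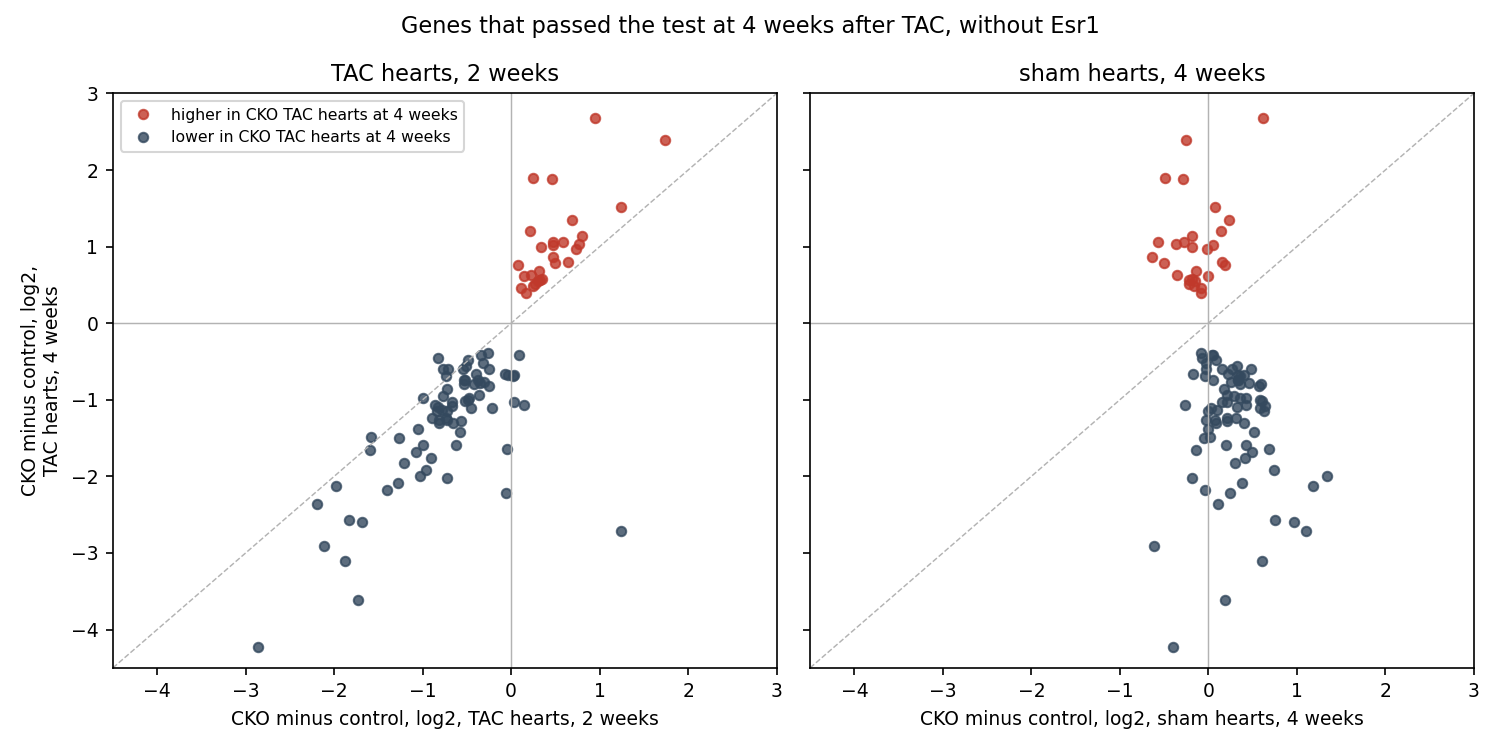
CKO minus control difference (log2) of the 76 lower and 28 higher called genes, without Esr1, in TAC hearts at 4 weeks (vertical axis) against the same difference in TAC hearts at 2 weeks (left) and sham hearts at 4 weeks (right); the dashed line marks equal differences. On the left 70 of 76 lower genes and 28 of 28 higher genes keep their side of 0, and on the right 16 and 8 do.

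Few genes passed the test of whether the genotype difference of TAC hearts changed between 2 and 4 weeks. In a simulation this test recovered 54% of 2-fold changes, so genes that do differ can be missed. By limma, 1 of 12589 genes passed (0.00794%), Clu, and 658 had an unadjusted p under 0.05. Clu, a secreted chaperone, had 354 and 436 FPKM in CKO hearts at 4 weeks, against 528 and 453 FPKM in control hearts, and 323 and 270.3 FPKM in CKO hearts at 2 weeks, against 965 and 984 FPKM in control hearts. The 4 minus 2 weeks difference was 1.41 (limma adjusted p = 0.013). The genotypes were thus further apart at 2 weeks, and at 4 weeks Clu did not pass (-0.31 ± 0.12, limma adjusted p = 0.32). The Clu call was lost without control heart 2, CKO heart 31 or control heart 32, in a fit of only the 4 groups and without the hearts whose Myl7 reached 10 FPKM. The count ran from 0 without control heart 32 to 20 without CKO heart 3.

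Cell division genes had unlike medians at the 2 times, with no gene called in the test of the difference. The medians were -0.12 at 4 weeks and 1.27 at 2 weeks, where 25 of 34 were apart upward (22.3% of all genes were). Cep55, a protein of the last step of cell division, is not on that list. It had 0.272 and 0.312 FPKM in CKO hearts at 4 weeks, against 0.692 and 0.644 FPKM in control hearts. At 2 weeks it had 3.67 and 6.16 FPKM in CKO hearts, against 1.34 and 1.16 FPKM in control hearts. Nppa had 1489 and 1278 FPKM in CKO hearts at 2 weeks, against 9118 and 10098 FPKM in control hearts 11 and 32. Nppa is abundant in atria, and of these 4 hearts control heart 11 alone reached 10 FPKM of Myl7, with 72.6 FPKM; its 10 atrial markers summed to 244 FPKM, against 87.8 and 82.8 FPKM in CKO hearts 13 and 31 and 82.9 FPKM in control heart 32. Nppa was higher in control heart 32 than in control heart 11. Its CKO minus control difference was -2.80 at 2 weeks and -2.19 at 4 weeks.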

How the data were processed

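Messenger RNA of 20 mouse hearts was sequenced with a stranded library kit. Alignment to mm10 used TopHat2 2.1.1 and Bowtie2 (version not given), and gene values came from Cuffdiff 2.2.1, per the submitters' processing notes. The annotation and strand setting are not given in the sources used here. The authors deposited FPKM for 23284 genes in each heart, with no counts. Among low values, 96.1% lay within 5% of a whole multiple of a step, which gave relative depth only.

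Values were analysed as log2(FPKM + 0.5), after a filter of 0.5 FPKM on the mean, in 1 limma 3.58.1 model (R 4.3.3) with a mean for each of 10 groups, a trended prior and 10 residual degrees of freedom. P-values were adjusted by Benjamini-Hochberg over 12589 genes, and a gene passed, or was called, at 0.05. Differences carry the model's standard error (SE) and understate the change of low genes. P-values measure the spread between hearts, 2 in each group. "Apart" means that both hearts of a group lie on one side of both hearts of the other.

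Named were the 12 largest rises and 12 largest falls that passed with a mean of at least 1 FPKM and no overlap, up to 4 members of each list with the smallest p, up to 5 genes of each difference test, the 6 most abundant genes that passed each way, and Wnt5a and Esr1; 1 gene is not reported here. Other genes were named after their values were seen. The comparison, lists and rules were chosen with earlier results of these data known. Alternatives were other pseudocounts, filters, scalings and priors, a fit of only the groups compared, and each heart left out; a lone heart is then assumed to vary like the other groups. In a simulation of the main comparison with 200 of 12589 genes changed, 79% of 2-fold and 96% of 4-fold changes were recovered, and 10 of 185 calls were false. For the difference between TAC and sham hearts, 55% of 2-fold and 88% of 4-fold changes were recovered. For the difference between 4 and 2 weeks, 54% and 87% were. Gene positions are from GENCODE M21 and promoters from RefSeq. Figures were drawn with Python 3.11.15 and matplotlib 3.10.9.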

Additional observations from a re-analysis of the deposited data

Results flagged for a closer look

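The CKO minus control difference changed between TAC and sham hearts at 4 weeks for 39 named genes, by limma's test of that difference (94 of 12589 genes passed). Genes named for their difference after TAC are favoured in this test, which uses the same TAC hearts. Values are the difference after TAC minus the difference after sham, on the log2 scale. Higher after TAC were Ces1d (2.65), Penk (2.39), Efemp1 (2.16), Scn4a (1.62), Pfkfb1 (1.35), Plxnb1 (1.33) and Apbb1 (0.72). Lower after TAC by more than 3 were Comp (-3.82), Saa3 (-3.81), Fmod (-3.80), Spp1 (-3.71), Cilp (-3.57), Mfap4 (-3.34) and Angptl7 (-3.30).

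Lower by 2 to 3 were Postn (-2.65), Ltbp2 (-2.47), Ptn (-2.47), Col8a2 (-2.47), Mfap5 (-2.17), Dio2 (-2.14) and Mgp (-2.13). Lower by 1 to 2 were Meox1 (-1.94), Nox4 (-1.79), Pi16 (-1.78), Col14a1 (-1.63), Aspn (-1.59), Frzb (-1.55), Itgbl1 (-1.45), Eln (-1.41), Fn1 (-1.40), Tgfb3 (-1.25), Igfbp7 (-1.24), Bgn (-1.15), Sparc (-1.07), Mmp2 (-1.07), Col5a2 (-1.07), Lum (-1.07), Serpinf1 (-1.05) and Ppic (-1.004). Between 4 and 2 weeks after TAC the difference changed for 1 gene, Clu (1.41).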

How the results depend on the processing

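The 55 named genes that passed kept their direction under every alternative in which they were tested. A filter of a mean of at least 3 FPKM left 44 of them to test, and median-ratio scaling kept all 55 calls. For CKO against control in TAC hearts at 4 weeks, the 105 calls became 2 in a fit of only the 4 hearts, 63 once hearts whose Myl7 reached 10 FPKM were left out, and 19 to 176 with 1 heart left out; the other alternatives gave 75 to 121. For the difference between TAC and sham hearts, the 94 calls became 0 in a fit of only the 4 groups, 29 without those Myl7 hearts, and 20 to 121 with 1 heart left out. For the difference between 4 and 2 weeks, the 1 call, Clu, became 3 with no filter, 2 with a prior without trend and 2 with a robust prior, Clu among them; it became 2 other genes in a fit of only the 4 groups, 2 other genes without those Myl7 hearts, and 0 to 20 with 1 heart left out. Fits with fewer hearts have fewer residual degrees of freedom. Why the counts changed was not tested. Counts per list without each heart were added after the data were seen; the matrix list had 9 to 18 calls, beside 19. No paired analysis was possible because every replicate number in the labels occurs once. With 2 hearts a group and no fragment counts, the precision of low values, such as those under 1 FPKM, is not known.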

Other observations

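Several genes outside the lists fell in CKO TAC hearts at 4 weeks. They were chosen after their values were seen. The cysteine protease cathepsin K (Ctsk) had 4.66 and 5.66 FPKM in CKO hearts, against 12.4 and 11.7 FPKM in control hearts (-1.15 ± 0.18, limma adjusted p = 0.0076), a call lost without heart 1. Meox1, a homeobox transcription factor of activated fibroblasts, had 17.3 and 11.8 FPKM in CKO hearts, against 40.7 and 37.8 FPKM in control hearts (-1.42 ± 0.26, limma adjusted p = 0.022). In Itgbl1, a secreted integrin-like protein, CKO hearts had 7.11 and 5.57 FPKM, against 20.8 and 17.0 FPKM in control hearts (-1.50 ± 0.20, limma adjusted p = 0.0027). Both genes were lower in each CKO heart than in each control heart. Meox1 lost its call without heart 41, heart 1 or heart 2, and Itgbl1 without heart 1. At 2 weeks after TAC the CKO minus control differences were -0.84 for Ctsk, -0.58 for Meox1 and -1.27 for Itgbl1, and in sham hearts at 4 weeks -2.86e-04 for Ctsk, 0.51 for Meox1 and -0.05 for Itgbl1.

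Entries of small RNA genes were among the largest log2 differences without passing. Mir29c was listed at 0 in both CKO hearts and at 1149 and 360.1 FPKM in control hearts (limma adjusted p = 0.41). FPKM are relative to transcript length, so few fragments can give a high value in so short an entry. The fragment counts are not known.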
